A study of Mus musculus with 54 samples.

Results

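The mouse mammary gland at day 7 of lactation was set against the gland at day 3 of lactation, on 6 of the 54 microarrays of a study of the gland through virgin life, pregnancy, lactation and involution. All probe sets other than the array's controls entered: of 12422, 8640 were bright enough to pass a filter on low signals, and these stood for 7311 genes or unnamed features. Each day had 3 mice, called A, B and C, with 1 one-colour Affymetrix array per mouse, hybridised with RNA from the fourth (inguinal) gland without its lymph node. All 6 mice had been mated at 12 weeks of age and were nursing, and neither day's glands carried a transgene or a treatment in the labels. The sources used here name neither the strain nor the litter size. The letters did not pair mice of the 2 days, and day 7 is also the last day before the pups were taken away in the involution arm of the study.

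The epithelium builds alveoli during pregnancy. In early lactation the secretory cells that line them make milk protein, milk fat and lactose under prolactin and glucocorticoids. Milk output in the mouse goes on climbing through the first part of lactation. Plasma cells that settle in the lactating gland make immunoglobulin A, which the epithelium carries into milk through the polymeric immunoglobulin receptor for the pups' gut. Whole gland RNA was measured, so more or fewer cells of a type and more or less RNA per cell cannot be told apart.

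Of the 7311 features, 213 (2.91%) were called between the days at an adjusted p under 0.05, 97 higher at day 7 (1.33%) and 116 lower (1.59%). The test was a limma fit over all 54 arrays with Benjamini-Hochberg adjustment over all features. A further measure, in which all 3 deposited signals of 1 day lay above all 3 of the other, held for 1417 features (19.4%), among them 190 of the 213. The change was over 2-fold for 67 of the genes called higher and 71 of those called lower. The median log2 difference over all features was 0.002. Between lactation day 1 and pregnancy day 17.5, the step into lactation, 24.4% of the same features were called. Between lactation day 3 and day 1, 2 features were called (0.0274%), both lower at day 3: Cnot8, a subunit of the mRNA deadenylation complex, and 1 probe set without a gene name. Between involution day 1 and lactation day 7, 26.9% were called. The last of these shares the day 7 arrays, and the one before it the day 3 arrays, with the comparison described here. The volcano plot sets the size of each change against its p.

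**Figure D1:**
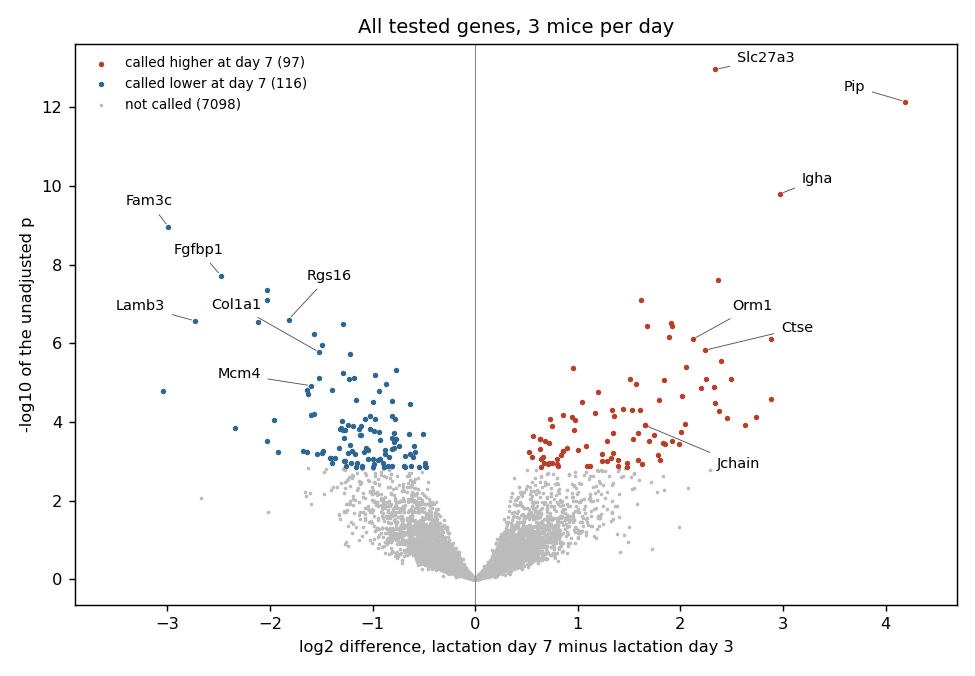
Log2 difference in signal, lactation day 7 minus lactation day 3 (x axis), against −log10 of the unadjusted limma p (y axis) for 7311 features, 3 mice per day. Red points are the 97 called higher at day 7, blue points the 116 called lower and grey points those not called, with Pip, Slc27a3 and Igha standing highest on the right and Fam3c on the left.

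The calls rest on a spread estimated from all 18 time points, with 36 residual degrees of freedom. With only the 6 arrays compared, 6 features were called higher (Igha, Igkv14-111, Igkv6-23 and 3 probe sets without 1 gene name) and 1 lower (Ptov1). Day 3 mouse A stood apart: its array correlated at r of 0.930 and 0.936 with the other day 3 arrays, which correlated at 0.949 with each other, and at 0.903 to 0.915 with the day 7 arrays. Its signal was the highest of the 3 day 3 mice in 78 of the 116 genes called lower, and in 35.2% of all features. The same mouse was the lowest of the 3 in 50 of the 97 genes called higher, and in 38.4% of all features. Without it 67 features were called higher (0.916%) and 40 lower (0.547%), and 53 of the 97 and 37 of the 116 first called remained. The median log2 difference of the 116 was −1.12 with that mouse and −0.99 without it. A measure of RNA quality also moved with the days: the 3′ to 5′ signal ratio of the Gapdh control probe sets was 1.15, 1.25 and 1.67 on the day 7 arrays, against 0.92, 1.03 and 1.11 on the day 3 arrays. With this ratio as a covariate, 94 features were called higher and 119 lower. The same ratio of the beta-actin control probe sets was 2.14, 1.58 and 1.76 at day 7, against 1.6, 1.55 and 1.43 at day 3, and with it as a covariate 131 were called higher and 186 lower. Array medians ran from 38.5 to 41.2 at day 7 and from 37.5 to 39.5 at day 3, and the highest signal anywhere in the table was 17265.5.

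The largest change was in Pip, prolactin-induced protein, a small secreted protein of exocrine glands. Pip gave signals of 347.4, 478.8 and 411.2 at day 7, against 11.7, 27.8 and 34.8 at day 3. Every day 7 mouse lay above every day 3 mouse by a wide gap, and mouse A was the lowest on both days. The fit gave a log2 difference of 4.19 ± 0.42 (SE, n = 3 mice per day), an 18.2-fold rise, with a limma adjusted p of 2.6e-09. The gene was listed near the bottom of the scale before this, with a mean of 23.4 at lactation day 1, and had a mean of 127 at involution day 1.

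Slc27a3, a fatty acid transport protein family member with acyl-CoA synthetase activity, gave the lowest p of the comparison. Its signals were 62.2, 108.5 and 90.5 at day 7, against 12.8, 18.9 and 19.5 at day 3. The days did not overlap, and the log2 difference was 2.34 ± 0.22 (limma adjusted p = 7.7e-10). Its call, like that of Pip, held when each of the 6 arrays in turn was left out. With only the 6 arrays compared neither was called, with limma adjusted p of 0.097 for Slc27a3 and 0.057 for Pip. Slc27a3 was the 1 called gene among 10 tested genes of fatty acid uptake and binding, against 1.33% of all features called higher. The median log2 difference of the 10 was 0.03.

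Features of the immunoglobulin loci made up 17 of the 97 rises (17.5%), a group picked out after its values were seen. Igha, the constant region of the immunoglobulin A heavy chain, gave 3417.7, 2493.1 and 4132.7 at day 7, against 357.5, 435.0 and 468.5 at day 3. All day 7 signals were several times those of day 3. The log2 difference was 2.97 ± 0.36, a 7.85-fold rise (limma adjusted p = 3.8e-07), and with only the 6 arrays its adjusted p was 0.023. Igha had been level at lactation day 1, with a mean of 435, and its means at involution days 1 and 2 were 3886 and 4562. A second probe set for Igha, dimmer by far, was also called (log2 difference 1.82 ± 0.36), and another, close to the floor, was not (0.66 ± 0.31).

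Of the 37 tested features annotated to the immunoglobulin heavy, kappa or lambda loci, 17 were called higher (45.9%, against 1.33% of all features) and 0 lower. The differences of 35 of the 37 were positive, with a median of 1.74 and a range of −0.31 to 2.97. The kappa light chain features gave 10 calls of 23, the heavy chain features 6 of 11 and the lambda features 0 of 2, and the remaining call was a feature annotated to Igk and to Asb2, a gene outside these loci. Many of these probe sets are not independent, since 19 of the 37 carry the array maker's mark for a set shared by a family of sequences. Without day 3 mouse A 12 were called higher. In a fit of all 12422 probe sets, with no filter and none merged, 257 were called higher (2.07%) and 171 lower (1.38%), and of the 74 probe sets of these loci 30 were higher and 0 lower. Named single genes among them were Igkv6-14 (log2 difference 2.88 ± 0.61), Ighv3-6 (2.74 ± 0.63), Igkv1-133 (2.40 ± 0.45), Ighv1-54 (2.34 ± 0.50) and Ighg3 (2.33 ± 0.47). The call of Ighv3-6 was lost without day 3 mouse B or day 7 mouse C. With no floor the calls of Ighv3-6, Ighv1-54 and Ighg3 were lost. Other kept probe sets of Ighg3 gave 1.93 ± 0.31 and 1.84 ± 0.45 with calls, and 0.45 ± 0.43 and 0.79 ± 0.38 without. Adck1, a mitochondrial kinase family gene, appeared with a difference of 2.88 ± 0.50, but its probe set is of the shared family kind and its other probe sets gave 1.48 and 1.24 with no call, so that its reading is uncertain. Probe sets for Ighm, the heavy chain of immunoglobulin M, disagreed. The one that stood for the gene, the brightest over all 54 arrays, gave 206.1, 203.4 and 221.1 at day 7, against 250.5, 199.6 and 351.1 at day 3, and was not called (−0.31 ± 0.43). Of its 10 other kept probe sets 6 were called higher and 0 lower in the fit of all probe sets, with differences of 1.44 to 2.65. The brightest of these on the arrays compared gave 2847.1, 2009.7 and 3571.2 at day 7, against 350.9, 598.8 and 390.2 at day 3 (2.65 ± 0.60, limma adjusted p = 0.0062).

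Some plasma cell genes outside the immunoglobulin loci rose, and these too were picked with their values known. Jchain, which joins immunoglobulin A into the dimers that cross the epithelium, gave 345.4, 256.5 and 443.2 at day 7, against 88.8, 117.8 and 121.7 at day 3. All day 7 mice lay above day 3 (log2 difference 1.65 ± 0.39, limma adjusted p = 0.011), but the call was lost without day 3 mouse A or day 7 mouse C. Tnfrsf17, the BCMA receptor of plasma cells, differed by 1.17 ± 0.26 with signals of 33.3, 36.6 and 48.6 at day 7, against 25, 13.8 and 15.1 at day 3, and lost its call without day 7 mouse C. Pou2af1, a coactivator needed for B cell responses, differed by 1.48 ± 0.43 at signals near the floor, and its call was lost in 5 of the 6 fits that left out 1 array. Among the 8 tested markers of B cells and plasma cells, Jchain was the 1 called, against 1.33% of all features called higher. The median difference of the 8 was 0.30. The B cell receptor genes Cd79a (0.89) and Cd79b (0.77) and the B cell surface gene Ms4a1 (0.45) were not called. Pigr, the receptor that carries the antibody into milk, was already bright: it gave 7120.6, 7186.6 and 6892.5 at day 7, against 5251.7, 8527.7 and 6193.2 at day 3, and was not called (0.12 ± 0.24). The summed signal of the 8 markers was 798 to 996 at day 7 and 560 to 727 at day 3. Jchain, at 256.5 to 443.2 against 88.8 to 121.7, was part of this sum. It was the 1 marker of the 8 whose days did not overlap. The part of cell number in the rise of the immunoglobulin and plasma cell genes was not tested.

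**Figure D2:**
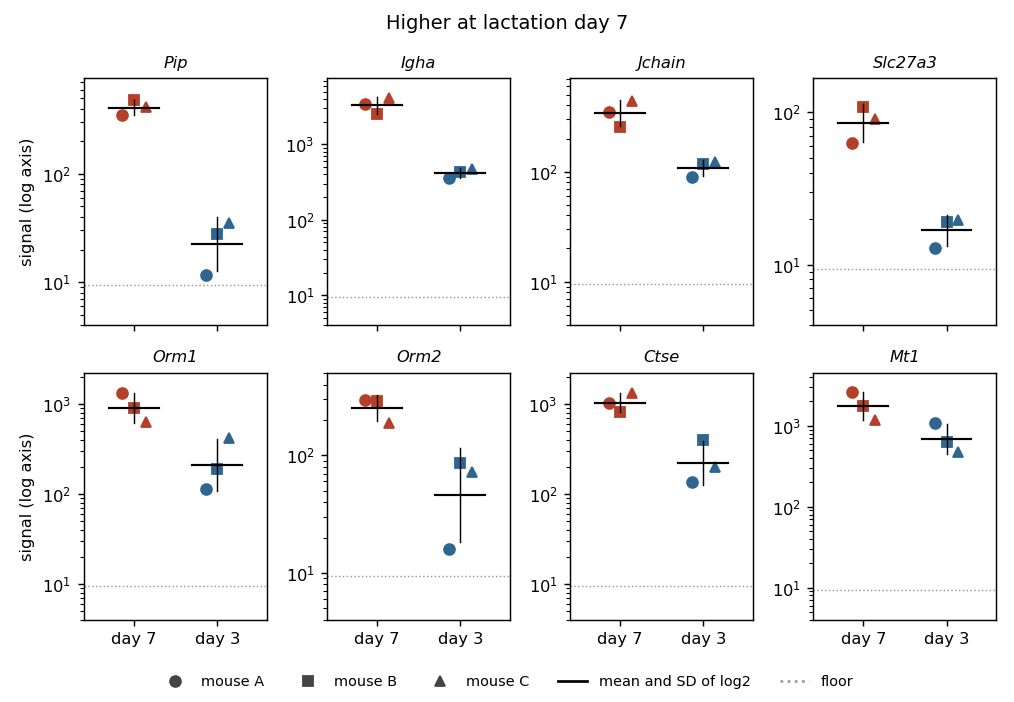
Signal (y axis, log scale) of 8 genes called higher, in the 3 mice of lactation day 7 (left, red) and of lactation day 3 (right, blue). Bars are the mean and SD of the log2 signals after flooring and the dotted line is the floor of 9.4. The 3 day 7 mice lie above the 3 day 3 mice in every panel, most closely in Mt1, where day 3 mouse A lies next to day 7 mouse C.

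Among the other large rises were acute phase proteins and a protease. Orm1, orosomucoid 1, a lipocalin of plasma, gave 1326.7, 894.2 and 622.8 at day 7, against 113.0, 188.1 and 422.7 at day 3 (log2 difference 2.12 ± 0.37, limma adjusted p = 0.00029). The days did not overlap, though day 3 mouse C came near day 7 mouse C. Its close relative Orm2 gave 294.2, 289.0 and 190.3 at day 7, against 16.1, 85.6 and 72.0 at day 3. That difference was 2.45 ± 0.56 with mouse A and 1.69 without it, where the adjusted p was 0.17. The copies are alike in sequence, and a probe set annotated to both differed by 2.05 ± 0.39 at a mean of 7414 at day 7 and 1790 at day 3, so signal of one gene on the other's probes cannot be told apart. Orm3 gave −0.03 ± 0.32. Orm1 was the 1 called among 17 tested genes of the acute phase and STAT3 list, against 1.33% of all features called higher. The median difference of the list was −0.05. Saa2, serum amyloid A, gave 3216.0, 835.6 and 312.6 at day 7, against 3056.7, 2198.4 and 3901.0 at day 3 without a call. Ctse, the aspartic protease cathepsin E, gave 1034.5, 824.0 and 1335.2 at day 7, against 135.3, 401.8 and 200.4 at day 3 (log2 difference 2.24 ± 0.40, limma adjusted p = 0.0005). A second of its probe sets was called (2.03 ± 0.58), while the remaining one was not (0.27 ± 0.39).

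The 250 bases before the annotated start are shown for Pip, the gene with the largest rise, for Orm2, and for Mcm7, a replication gene that was lower at day 7, from the RefSeq promoter table of build GRCm38.p6. The motifs were chosen after the values were seen. Capitals in Pip mark TTCNNNGAA, the core bound by STAT5 and other STAT factors, with matches starting 140 and 42 bases before the start of the gene. The motif reads the same on both strands and occurs in 7.02% of 32851 promoters of this length.
Pip, chr6:41847299-41847548, plus strand: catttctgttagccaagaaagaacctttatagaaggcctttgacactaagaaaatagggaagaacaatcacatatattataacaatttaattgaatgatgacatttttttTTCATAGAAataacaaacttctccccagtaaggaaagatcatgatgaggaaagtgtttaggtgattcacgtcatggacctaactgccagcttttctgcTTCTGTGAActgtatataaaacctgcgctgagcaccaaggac
Capitals in Orm2 mark TTGCNNAA, searched on both strands as a core of sites for C/EBP factors, found 120 bases before the start and in 9.56% of promoters.
Orm2, chr4:63362199-63362448, plus strand: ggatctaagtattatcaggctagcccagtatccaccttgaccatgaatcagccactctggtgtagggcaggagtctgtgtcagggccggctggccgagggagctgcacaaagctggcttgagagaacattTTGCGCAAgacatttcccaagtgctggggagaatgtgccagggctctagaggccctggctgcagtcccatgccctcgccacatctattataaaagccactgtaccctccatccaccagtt
Capitals in Mcm7, shown at 1 of its 2 annotated starts, mark GCGGGAAA, the other strand of the E2F core TTTCCCGC, found 165 bases before the start and in 0.895% of promoters.
Mcm7, chr5:138171884-138172133, minus strand: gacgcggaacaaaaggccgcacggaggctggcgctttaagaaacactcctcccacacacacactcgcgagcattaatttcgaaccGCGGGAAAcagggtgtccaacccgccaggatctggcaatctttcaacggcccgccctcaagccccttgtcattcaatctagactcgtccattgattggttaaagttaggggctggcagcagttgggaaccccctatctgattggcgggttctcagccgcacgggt
These matches describe the letters, not binding. Over the called genes with a promoter in the table, TTCNNNGAA was found for 3 of 45 higher genes (6.67%) and 9 of 88 lower genes (10.2%), against 7.12% of 5158 tested genes. The core TTGCNNAA was found for 15.6% of the higher and 15.9% of the lower genes, against 9.75% of tested genes. The E2F core was found for 0 of 45 higher and 2 of 88 lower genes (2.27%), against 2.09% of tested genes.

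The lists of prolactin and STAT5 genes and of glucocorticoid responsive genes gave a few calls. Of 14 tested prolactin and STAT5 genes 2 were higher (against 1.33% of all features) and 0 lower. The differences were positive in 9 and negative in 5, with a median of 0.22. Socs1, a feedback inhibitor of JAK kinases, gave 75.4, 41.6 and 40.8 at day 7, against 24.1, 12.1 and 16 at day 3 (log2 difference 1.59 ± 0.45, limma adjusted p = 0.038). The days did not overlap, yet the call was lost in 5 of the 6 fits that left out 1 array. Its relatives Socs2 (0.37), Cish (−0.10) and Socs3 (−1.04, under the floor in all 3 day 7 mice) were not called. Igf1, insulin-like growth factor 1, differed by 1.28 ± 0.33, and its second probe set by 0.63 ± 0.25 without a call. Its signals were 282.6, 84.9 and 200.5 at day 7, against 54.4, 60.7 and 101.6 at day 3, so that day 7 mouse B lay below day 3 mouse C, and 4 of the 6 fits that left out 1 array lost its call. Of 15 glucocorticoid responsive genes 2 were higher (against the same 1.33%) and 0 lower, with a median of 0.48. The mean log2 signal of this list was 7.66, 6.33 and 6.45 at day 7, against 6.65, 6.12 and 6.25 at day 3. Only day 7 mouse A thus lay above all day 3 mice, and day 7 mice B and C lay below day 3 mouse A. Mt1, the metal binding metallothionein 1, gave 2609.8, 1760.5 and 1184.5 at day 7, against 1095.9, 626.0 and 477.7 at day 3 (1.35 ± 0.31, limma adjusted p = 0.0076), without overlap. Fkbp5, a co-chaperone of the glucocorticoid receptor, differed by 1.24 ± 0.34, with signals of 468.9, 180.8 and 233.9 at day 7, against 209.8, 97.6 and 73.7 at day 3, where day 3 mouse A lay above day 7 mouse B. Both calls were lost without day 3 mouse C and without day 7 mouse A, the mouse with the highest signal of both genes at day 7, and that of Fkbp5 also without day 3 mouse B or day 7 mouse C. Mt2 (1.55 ± 0.52) and Cebpd (0.95 ± 0.35) were not called, and both had their highest signal in that same mouse.

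The genes of milk itself were already bright at day 3, with means from 718 (Xdh) to 12901 (Csn1s1), and 0 of 20 were called in either direction. Their differences were positive in 19 of the 20, with a median of 0.35, against 0.002 over all features, and in 13 the 3 day 7 mice lay above the 3 day 3 mice (over all features 19.4% were without overlap, counting both directions). The summed signal was 172073, 165350 and 170219 at day 7, against 113063, 148297 and 138044 at day 3, with mouse A the lowest. Without day 3 mouse A the median was 0.26, and the differences of Muc1 (−0.28) and Pigr (−0.04) became negative. Wap, whey acidic protein, gave 15867.6, 15027.5 and 15270.2 at day 7, against 10547.5, 14280.1 and 12318.0 at day 3. Csn2, beta casein, gave 9447.3, 9006.6 and 8765.3 at day 7, against 5757.1, 7109.4 and 7139.9 at day 3. Lalba, the alpha lactalbumin of lactose synthase, gave 9342.3, 13674.8 and 14059.7 at day 7, against 7476.1, 9221.9 and 9086.7 at day 3. For these 3 genes no day 7 mouse lay below a day 3 mouse, and the log2 differences were 0.32, 0.45 and 0.51. Their standard errors, 0.78, 0.67 and 0.72, pool the spread of all time points, and which of them add most was not tested. With the 6 arrays alone the standard errors were 0.17, 0.14 and 0.21, with limma adjusted p of 0.48, 0.32 and 0.41. Elf5, the transcription factor of alveolar cells, differed by 0.35 ± 0.29, and the luminal keratins Krt8 (0.09 ± 0.32) and Krt18 (−0.57 ± 0.31) were not called. Stat5a, the prolactin-activated factor itself, gave −0.18 ± 0.17.

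Lipid synthesis gave 1 call. Elovl5, the elongase of long polyunsaturated fatty acids, gave 4989.0, 5440.2 and 5463.9 at day 7, against 2451.2, 3124.6 and 4064.3 at day 3 (0.75 ± 0.21, limma adjusted p = 0.043). The 2 days were separate, and the call was lost in 5 of the 6 fits that left out 1 array. It was the 1 called gene among 17 of fatty acid and triglyceride synthesis (against 1.33% of all features called higher), with a median of 0.19. Cholesterol synthesis had 0 calls among 15 genes, of which 13 had negative differences, with a median of −0.28. The largest was that of Dhcr7, the last enzyme of the pathway (−1.15, adjusted p = 0.11). In fatty acid oxidation Cpt1a, the carnitine palmitoyltransferase that admits fatty acids to mitochondria, was called lower (−1.27 ± 0.31), with signals of 62.3, 20.3 and 13.6 at day 7, against 69.1, 48.3 and 72.4 at day 3, and 4 of the 6 fits that left out 1 array lost its call. The days overlapped only through day 7 mouse A. The other 12 tested genes were not called, and 1.59% of all features were called lower.

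**Figure D3:**
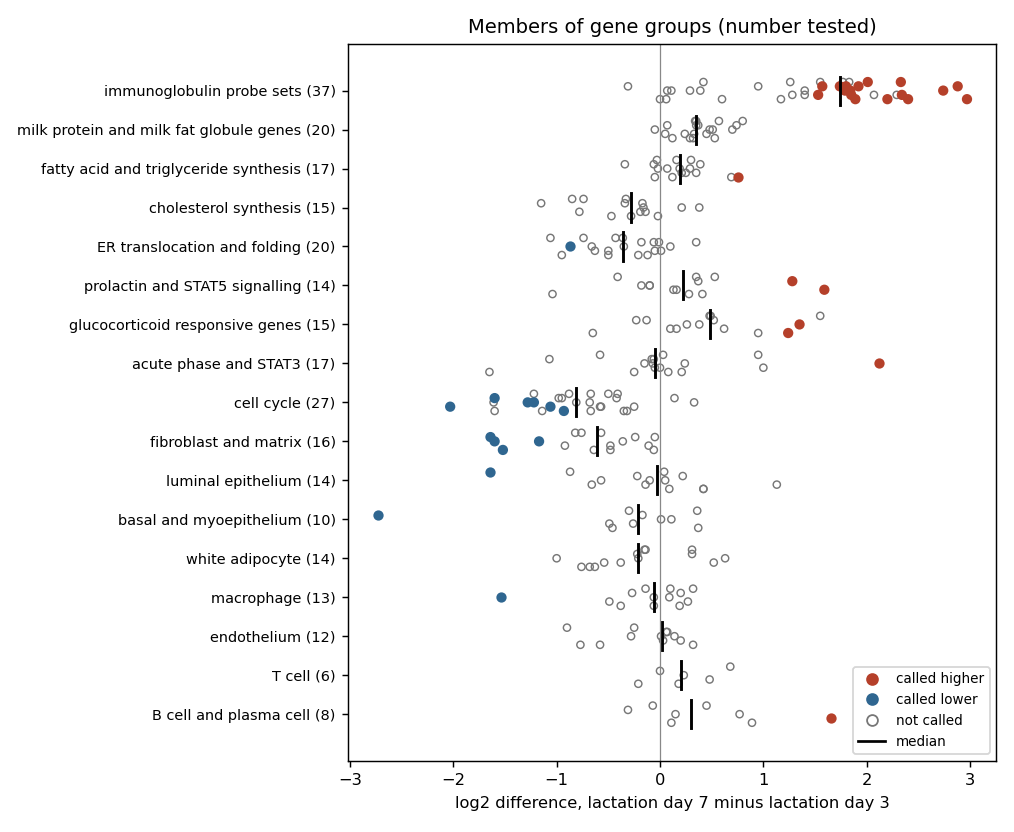
Log2 difference, lactation day 7 minus lactation day 3 (x axis), of the members of 17 gene groups (rows, number tested in brackets). Filled red and blue points were called higher and lower, open points were not called, and the black line is the group's median, which is 1.74 for the immunoglobulin features, −0.81 for the cell cycle genes and −0.61 for the fibroblast and matrix genes.

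The largest fall of a named gene was that of Fam3c. This gene, which encodes a secreted interleukin-like protein, gave 3.2, 34.5 and 2.9 at day 7, against 226.6, 82.8 and 81.1 at day 3 (log2 difference −2.99 ± 0.38, limma adjusted p = 2e-06). At day 7, 2 of the 3 mice lay under the floor of 9.4, and its other probe sets gave smaller differences, −1.40 ± 0.36 with a call and −1.02 ± 0.40 without. Lamb3, the beta 3 chain of the epithelial basement membrane laminin, gave 30.6, 63.5 and 28.6 at day 7, against 495.4, 184.2 and 176.7 at day 3 (−2.73 ± 0.45, limma adjusted p = 0.00017). Mouse A was by far the highest at day 3, no day 7 mouse reached the others, and without it the difference was −2.24. Its second, dimmer probe set gave −1.36 ± 0.56 without a call, and there the days overlapped. Fgfbp1, a carrier protein for fibroblast growth factors, was under the floor in all 3 day 7 mice, against 86.9, 26.5 and 62.9 at day 3, which makes it at least 5.59-fold lower. Elf3, an epithelial ETS factor, fell by 1.64 ± 0.44 on the log2 scale, with signals of 50.4, 31.9 and 32.7 at day 7, against 116.0, 107.2 and 127.6 at day 3, though 4 of the fits that left out 1 array lost its call.

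Lamb3 and Elf3 were the 1 call each among 10 basal and myoepithelial and 14 luminal markers, against 1.59% of all features called lower. The medians of these lists were −0.22 and −0.03. The smooth muscle actin of myoepithelium, Acta2, gave 679.1, 735.5 and 492.7 at day 7, against 874.9, 787.6 and 669.4 at day 3, and was not called (−0.30 ± 0.34). Other large falls were those of Tspan4, a tetraspanin (−2.12 ± 0.35, with 76.7, 43.3 and 28.4 at day 7, against 217.3, 140.1 and 252.3 at day 3), and of Rgs16, which speeds GTP hydrolysis by G proteins (−1.82 ± 0.30). Rgs16 gave 107.1, 88.0 and 81.9 at day 7, against 186.9, 495.7 and 370.2 at day 3, and here mouse A was the lowest at day 3; its second probe set gave −1.22 ± 0.44 without a call. Coro1c, an actin binding coronin, fell by 2.03 ± 0.31 on the log2 scale, and Cd37, a leukocyte tetraspanin, by 1.96 ± 0.45, both at low signals at day 7. The call of Cd37 was lost without day 7 mouse A.

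**Figure D4:**
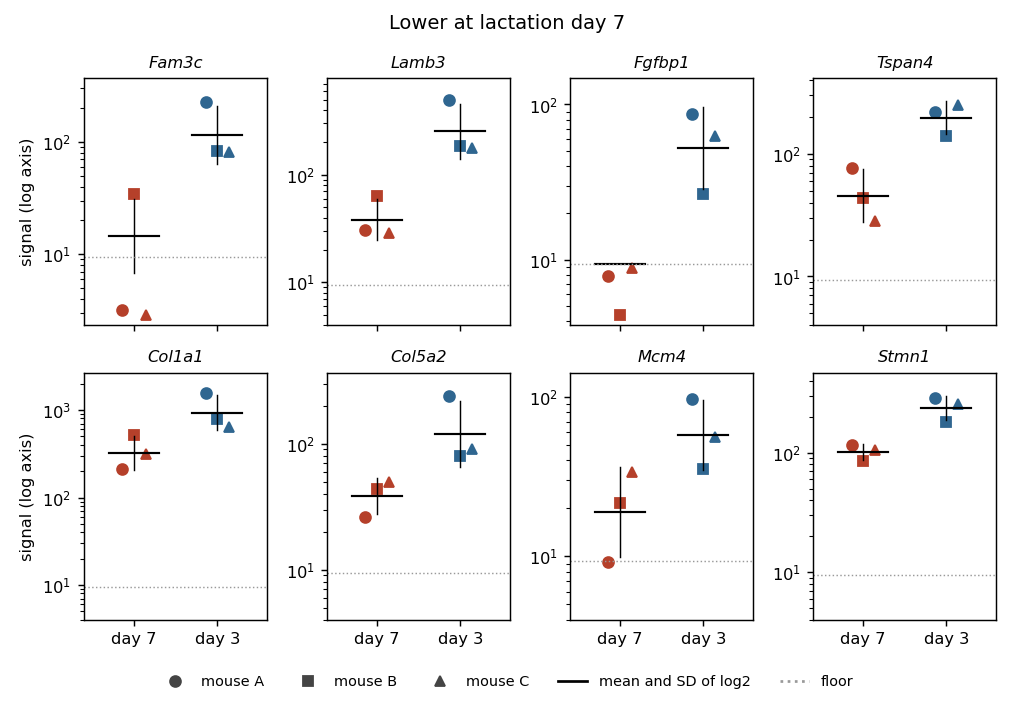
Signal (y axis, log scale) of 8 genes called lower, in the 3 mice of lactation day 7 (left, red) and of lactation day 3 (right, blue). Bars are the mean and SD of the log2 signals after flooring and the dotted line is the floor of 9.4. No day 7 mouse lies above a day 3 mouse, and mouse A is the highest at day 3 in all but Tspan4.

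Calls among the cell cycle genes were all falls, and none of them held without day 3 mouse A. Of 27 tested genes 0 were higher and 6 lower (against 1.59% of all features called lower), 25 had negative differences, and the median was −0.81. Without day 3 mouse A 0 were called lower and the median was −0.56; leaving out each of the other arrays gave 1 to 8 falls, with 1 without day 7 mouse B, 2 without day 7 mouse C and 3 without day 3 mouse C. The summed signal of the list was 1994, 1815 and 1993 at day 7, against 4500, 2725 and 3519 at day 3, so that all 3 day 3 mice lay above day 7 and mouse A furthest. Mcm4, a subunit of the helicase that unwinds DNA for replication, gave 9.2, 21.7 and 33.8 at day 7, against 96.5, 35.2 and 56.1 at day 3 (log2 difference −1.60 ± 0.32, limma adjusted p = 0.0022, 0.055 without mouse A). Its partners Mcm7 (−1.28 ± 0.36) and Mcm3 (−1.06) were called too. Rrm1, the large subunit of ribonucleotide reductase, gave 15.3, 10.6 and 7.5 at day 7, against 122.6, 11 and 76.6 at day 3 (−2.03 ± 0.52), and day 3 mouse B lay among the day 7 mice. Stmn1, the microtubule regulator stathmin, gave 115.8, 85.8 and 105.5 at day 7, against 287.6, 181.9 and 253.9 at day 3 (−1.22 ± 0.32). Every day 3 mouse lay above every day 7 mouse, and without mouse A the difference was −1.08 with an adjusted p of 0.15. Ccnd1, cyclin D1, differed by −0.93.

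Calls among the fibroblast and matrix genes were falls too. Of 16 tested genes 0 were higher and 4 lower (against 1.59% of all features called lower), all 16 had negative differences, and the median was −0.61, or −0.33 without day 3 mouse A, when 1 was called lower. Without that mouse the differences of Col5a1 (0.12), Col6a2 (0.02), Dcn (0.10) and Mfap5 (0.26) became positive. The summed signal was 2568, 3531 and 3672 at day 7, against 8063, 4130 and 4161 at day 3, with mouse A far above the other day 3 mice. Col1a1, the alpha 1 chain of type I collagen, gave 210.6, 519.6 and 313.3 at day 7, against 1578.2, 798.3 and 643.9 at day 3. The groups were separate (log2 difference −1.52 ± 0.27, limma adjusted p = 0.00055), and the call held when each array in turn was left out, with a difference of −1.14 without mouse A. A second probe set for Col1a1 gave −0.60 ± 0.29 without a call. Col1a2, the partner chain, gave 77.4, 252.8 and 216.5 at day 7, against 971.8, 329.5 and 367.8 at day 3 (−1.60 ± 0.36), while another of its probe sets went the opposite way without a call (0.53 ± 0.22). Col5a2, of type V collagen (−1.64 ± 0.33), and Pdgfra, the platelet-derived growth factor receptor of fibroblasts (−1.17 ± 0.32), lost their calls without mouse A, as did Col1a2. Without day 7 mouse A 2 of the 16 were called lower, and the calls of Col1a2 and Pdgfra were among those lost.

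Markers of other cell types gave few calls. The 14 white adipocyte genes gave 0 calls with a median of −0.22, and Adipoq, the adipocyte hormone adiponectin, gave 635.1, 490.9 and 634.4 at day 7, against 1490.4, 647.8 and 760.0 at day 3 (−0.63 ± 0.22, limma adjusted p = 0.13). The 12 endothelial, 6 T cell, 14 skeletal muscle and 4 erythroid genes gave 0 calls, with medians of 0.02, 0.20, −0.02 and −0.54. The 13 macrophage genes had a median of −0.06 and gave 1 call, against 1.59% of all features called lower. This was Adgre1, the F4/80 antigen (−1.54 ± 0.42). Its signals were 14.8, 20.1 and 20.5 at day 7, against 62.1, 24.3 and 99.8 at day 3, and its call was lost in 5 of the 6 fits that left out 1 array. The basal keratins Krt5 and Krt14 were too dim on this array to pass the filter.

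The genes that moved between days 3 and 7 had different courses around that interval. Pip, Slc27a3 and Ctse were highest at day 7 of the 6 time points from pregnancy day 17.5 to involution day 2: Ctse had a mean of 252 at lactation day 1 and 189 at involution day 1. Igha and Jchain were as high or higher in involution, with a Jchain mean of 459 at involution day 1. Orm1 also kept its level, with a mean of 1026. Col1a1 had means of 984 at lactation day 1 and 618 at involution day 1, and Mcm4 of 49.9 and 48.4, so that both were lowest at day 7. These levels share the day 7 and day 3 arrays with the comparison and are given as a description.

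**Figure D5:**
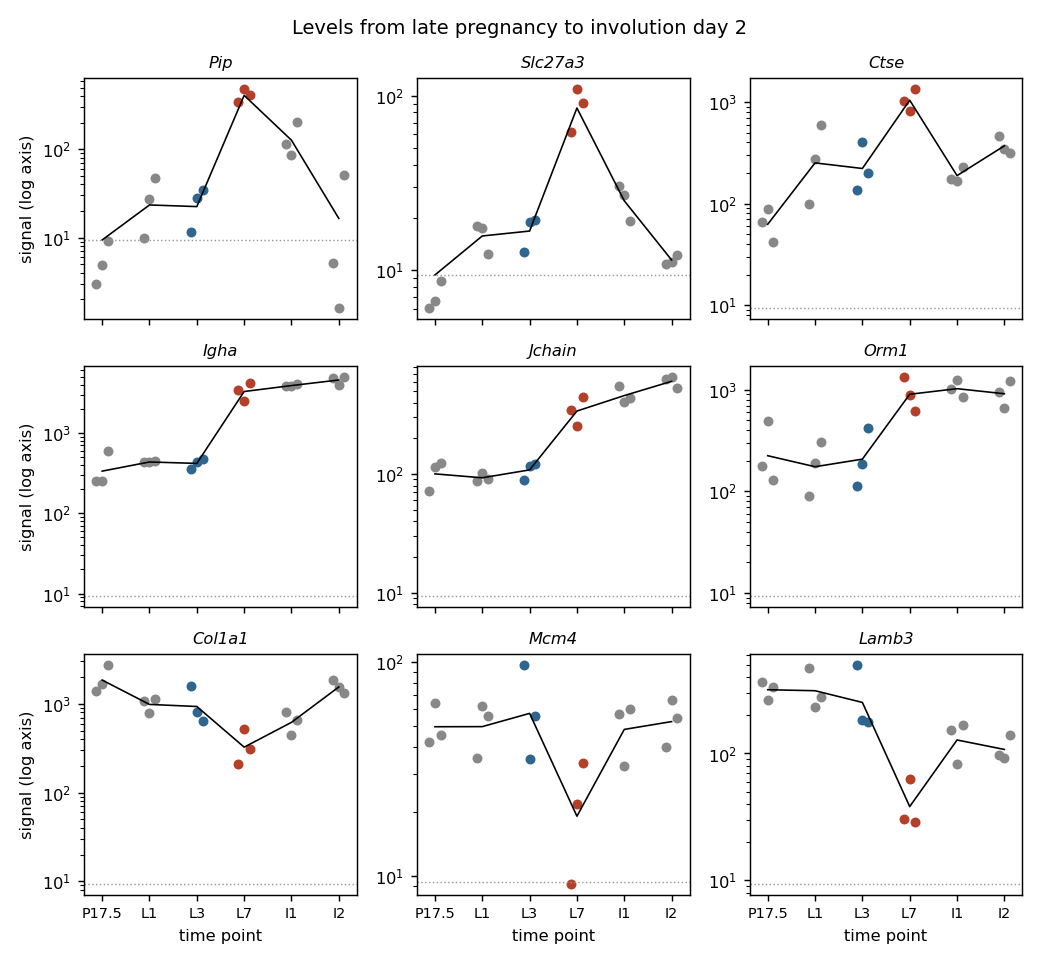
Signal (y axis, log scale) of 9 genes in 3 mice at each of pregnancy day 17.5 (P17.5), lactation days 1, 3 and 7 (L1, L3, L7) and involution days 1 and 2 (I1, I2), in time order, with day 7 in red, day 3 in blue and a line through the means. Pip, Slc27a3 and Ctse peak at L7, Igha, Jchain and Orm1 stay high after it, and Col1a1, Mcm4 and Lamb3 are lowest at L7.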

How the data were processed

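The deposited values are signal intensities that the authors computed with MAS5, per the submitters' processing notes, on a linear scale with the 2% trimmed mean of each array at about 100.07. No source used here gives the MAS5 version. A floor of 9.4 (the table's 25th percentile) was applied before log2; means given as 1 value per day are means of these log2 values, turned back. Filtering dropped the array's 66 controls and probe sets that at none of the 18 time points exceeded 22.8 (the 40th percentile) on all 3 arrays. The brightest kept probe set stood for a gene; 870 of the 7311 features had no single gene symbol.

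All 54 arrays were fitted with limma 3.58.1 in R 4.3.3 (eBayes with an intensity trend, 36 residual and 6.77 prior degrees of freedom), with two-sided tests. Each array is a separate mouse. Figures were drawn with matplotlib 3.10.9.

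The comparison, the gene lists, the motifs and the alternatives were chosen with earlier results of these data known. Named genes were the 12 largest rises and 12 largest falls among called genes without overlap, up to 4 members of each list with at least 2 calls, and 9 fixed genes; the immunoglobulin features, the other list members and the genes under other observations were picked after their values were seen. The script was tested on simulated data. Same-letter mice did not deviate together (r of 0.027, 0.038 and −0.002), so letters were not used as pairs.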

Additional observations from a re-analysis of the deposited data

How the results depend on the processing

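Against 97 genes called higher and 116 lower, 6 and 1 were called with only the 6 arrays compared, and 29 and 7 with the 9 lactation arrays; the samples, and with them the residual degrees of freedom, are fewer there by construction. Of 63 called genes named in the text or looked at, 1 and 10 kept their calls. More were called higher after flooring at the 40th percentile (182), with no filter (192) and with all probe sets uncollapsed (257 of 12422), and more lower with the beta-actin 3′ to 5′ ratio as a covariate (186), an alternative added after the data were seen, as was the Gapdh ratio. The cause was not tested. Leaving out each array in turn gave 56 to 105 higher and 40 to 140 lower. The lowest counts came without day 7 mouse C (56 higher, 74 lower) and without day 3 mouse A (67 higher, 40 lower); without day 7 mouse A 63 were higher. With the letter as a replicate block, 110 were called higher and 126 lower, and 63 of the 63 genes kept their calls; the letters share only a name. No floor, median scaling, quantile normalization, array quality weights and no intensity trend gave 68 to 98 higher and 79 to 134 lower. None of the 63 genes changed direction under any of these. Signals near the floor, as for Fgfbp1 and Fam3c at day 7, limit the size of a change that can be measured, and 3 mice per day limit its precision.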

Other observations

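A few genes of the secretory path, picked out after their values were seen, were lower at day 7 by small and tight differences. Rpn2, a subunit of the oligosaccharyltransferase that adds sugar chains to new proteins, gave 362.7, 343.2 and 351.3 at day 7, against 696.4, 592.5 and 641.1 at day 3 (log2 difference −0.87 ± 0.17, limma adjusted p = 0.0021). The days lay far apart relative to their spread, and the call held when each array was left out. Emc10, of the ER membrane protein complex (−0.64 ± 0.14), kept its call as well. Sec13, a COPII coat subunit (−0.65 ± 0.16), Copz1, a COPI coat subunit (−0.59 ± 0.16), and Erp44, an ER thioredoxin-like protein (−0.64 ± 0.17), were called but lost it without 2 to 6 of the 6 arrays. Of 20 fixed genes of ER translocation and folding 0 were higher and 1, Rpn2, was lower (against 1.59% of all features called lower). Of the 20, 17 had negative differences, and the median was −0.35, or −0.17 without day 3 mouse A. Without that mouse the differences of Sec61a1 (0.03), Ssr3 (0.11), Dad1 (0.01) and Dnajc3 (0.15) became positive. In the opposite direction Tram1, a translocation-associated membrane protein, gave 1678.2, 1506.0 and 2300.7 at day 7, against 1183.7, 947.1 and 1159.7 at day 3 (0.72 ± 0.19). Its call was lost without day 3 mouse B or day 7 mouse C, and its second probe set gave 0.13 ± 0.32. Qsox1, an enzyme that makes disulphide bonds, differed by 1.63 ± 0.47, or by 1.09 without day 3 mouse A, and 4 of the 6 fits that left out 1 array lost its call. Its second kept probe set gave 1.83 ± 0.64 without a call (limma adjusted p = 0.1).

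Other calls picked out in the same way touched growth signalling and protein turnover. Dusp6, a phosphatase that acts on ERK, fell by 1.40 ± 0.29 on the log2 scale, with 20.8, 37.4 and 24.8 at day 7, against 100.7, 49.5 and 71.0 at day 3, and H2ax, the histone marked at DNA breaks, by 1.18 ± 0.23. Both calls held when each array was left out. The immunoproteasome subunits Psmb8 (−0.94 ± 0.19) and Psmb10 (−0.79 ± 0.20) were lower, and both lost their calls without day 3 mouse A, as did Psmb10 without day 7 mouse A. Psmb9, another such subunit, was not called (−0.50 ± 0.34). Its days overlapped, and its difference was −0.05 without day 3 mouse A. Map1lc3b, the LC3B protein of autophagosomes, gave 1049.3, 727.7 and 703.8 at day 7, against 305.2, 531.5 and 455.5 at day 3 (0.95 ± 0.18), a call that held without each array, while its second probe set gave 0.30 ± 0.15 without a call. Ehf, an epithelial ETS factor, was higher (1.65 ± 0.39), as were Sfrp2, a secreted Wnt-binding protein (1.54 ± 0.39), and Arg2, arginase 2 (1.48 ± 0.42). Leaving out 1 array ended the calls of Ehf and Sfrp2 in 2 of 6 fits each and that of Arg2 in 4 of 6. Slfn2, a schlafen family gene, was called lower (−2.34 ± 0.56), yet its day 7 signals were 201.8, 24.7 and 16.1, against 239.9, 195.2 and 222.1 at day 3, so day 7 mouse A lay with the day 3 mice, and its second kept probe set gave −0.55 ± 0.46 without a call.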
